A study of Mus musculus with 18 samples.

Results

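The posterior and the anterior axis of control mouse embryos were compared at embryonic day 9. The posterior piece held the axial bud and the 10 to 12 youngest somites, and the anterior piece held the older somites in front of them. The members were all libraries with the genotype label Control, 10 of 18 in the study, 5 from posterior and 5 from anterior pieces. Each embryo gave 1 library of each piece, matched by genotype, sex label and somite number, and the 5 embryos had 23, 20, 24, 21 and 23 somites in the order of their numbers. The alleles or Cre carried by the controls were not given in the labels. The other 8 libraries came from 4 embryos of 20 to 24 somites in which Meis1 and Meis2 had been deleted conditionally with Delta1Cre (double knockout, DKO), and they served only to ask whether the posterior-anterior difference itself differed. A piece was a slice of mixed tissue, so a lower value can come from fewer cells of a type or from less RNA per cell, and these cannot be told apart. Both libraries of embryo 1 went against their sex label: the embryo is labelled female, yet Xist stood at 0.341 and 0.212 CPM (counts divided by the scaled library size in M, where M stands for mega) and the Y-linked Ddx3y at 42.8 and 48.2 CPM, close to the libraries labelled male. Sex is the same in both pieces of an embryo, and 4018 genes passed the test without embryo 1, against 5136 with it.

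The vertebrate body axis is laid down from head to tail. Progenitors in the axial bud feed the neural tube and the presomitic mesoderm, and somites are cut off in sequence from the anterior end of the presomitic mesoderm under a clock of Notch, Wnt and FGF signals. FGF and Wnt signals are strong in the bud, while retinoic acid is made in the somites and cleared at the tail end. The anterior somites are therefore older than the posterior ones and have gone further in splitting into sclerotome, dermomyotome and myotome. Hox genes are switched on in the order of their place in the cluster, so that those of high paralogue number mark the posterior body.

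Libraries held 12.651 M to 38.18 M expected counts. Posterior libraries totalled 25.19 ± 9.09 M and anterior ones 17.78 ± 4.972 M (SD, n = 5), and their ranges overlapped. An exact two-sided sign-flip test gave p = 0.25, and with 5 pairs it cannot go below 0.0625. The first principal component held 49.55% of the variance over genes and separated the pieces. Of 15294 genes tested, 5136 passed an adjusted p of 0.05 (33.6%), 2455 of them higher (16.1%) and 2681 lower (17.5%) in the posterior piece. The balance depended on the processing: 47.8% of calls were higher here, 41.4% with upper quartile scaling, 50.6% with DESeq2 and 51.6% with no filter on low counts. Most differences were small: 2773 of the called genes had an absolute log2 fold change under 0.5. A test against a 2-fold difference called 305 genes higher (1.99%) and 363 lower (2.37%). The values of the pieces did not overlap for 20.1% of genes tested, and 4783 of the called genes had the same direction in 5 of 5 embryos.

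**Figure D1:**
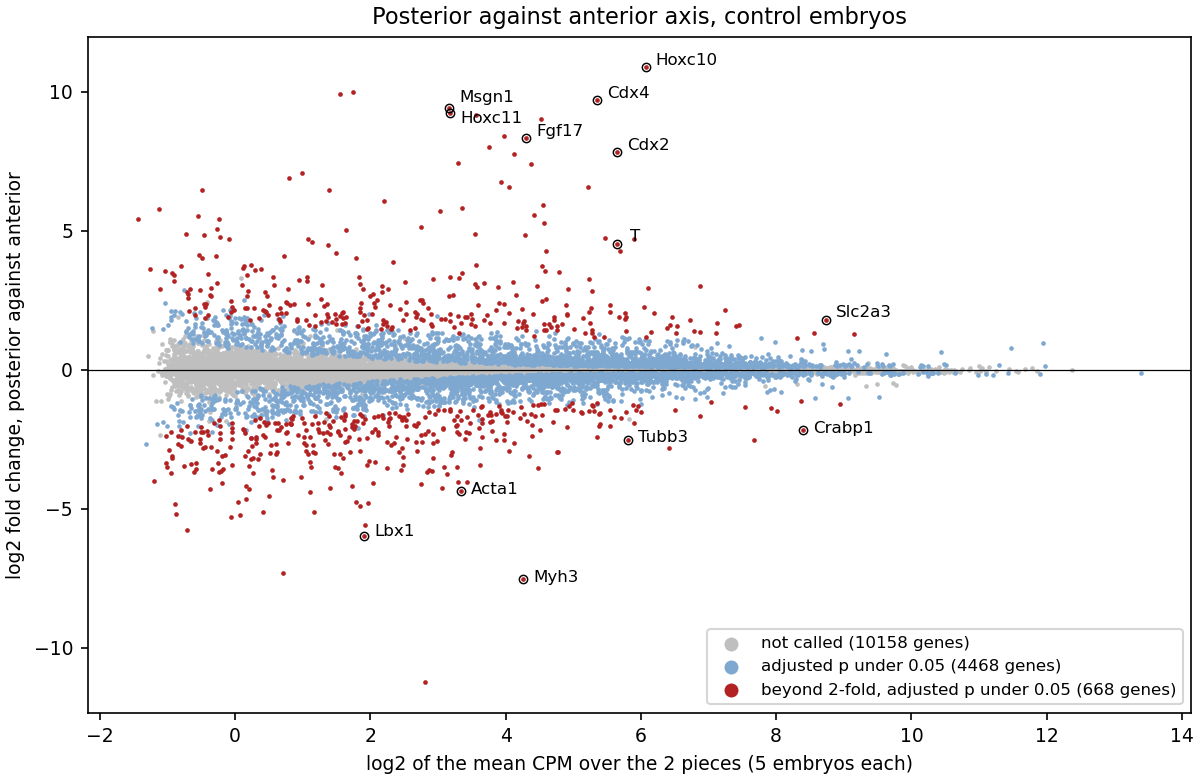
Each point is 1 of 15294 genes: the horizontal axis is the log2 of its mean CPM over both pieces and the vertical axis its log2 fold change, posterior against anterior, in 5 control embryos. The 668 genes beyond 2-fold (red) reach furthest upward at Hoxc10, and the plotted position of genes without a read in all libraries of 1 piece depends on the prior count.

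Genes of the axial bud were higher in the posterior piece as a group. Of 19 listed genes, all tested, 15 were higher, 2 lower and 2 not called, with a median log2 fold change of 1.59 against −0.01 over all genes tested. For 2 of them no anterior library reached the minimum of the filter on low counts (0.536 CPM), so they entered the test only through the posterior libraries, which fixed their direction. This held for 8 genes of the presomitic list and 5 Hox genes of groups 9 to 13 below, and for at most 3 genes, in either direction, of any other list. The counts and medians of such lists are descriptions. T (Brachyury, chr17:8434423-8442496 in GRCm38), the T-box factor that maintains axial progenitors, was at 4.44, 4.47, 2.97, 4.38 and 4.56 CPM in the anterior libraries of embryos 1 to 5 and at 83.3, 136, 85.8, 90.7 and 83.7 CPM in the posterior ones. No anterior library came near any posterior one, and the posterior library of embryo 2, the youngest embryo with 20 somites, was the highest (log2 fold change 4.53 ± 0.10 (SE), adjusted p = 1.21e-09). The caudal homeobox gene Cdx2, which drives posterior growth of the axis, went from 0.0569, 0.856, 0.156, 0.115 and 0.912 CPM to 81.2, 152, 67.7, 98 and 97.7 CPM (log2 fold change 7.84 ± 0.19 (SE), adjusted p = 1.21e-09). Its paralogue Cdx4 was at 0.0569, 0.311, 0, 0 and 0 CPM in the anterior and 64.4, 128, 50.5, 78.3 and 84.4 CPM in the posterior libraries. It had 9 anterior counts in all against 9974 posterior ones, which is 786-fold, with a 95% counting interval of 414 to 1720.0, and most of the anterior counts came from embryo 2. The log2 fold change was 9.68 with that embryo and 11.65 without it, where 1 anterior count remained and the value depends on the prior count. The third family member did not follow: Cdx1 was at 8.36, 9.68, 6.64, 8.25 and 8.34 CPM in the anterior and 9.18, 7.0, 5.68, 12 and 14.3 CPM in the posterior libraries, the groups overlapped, and the log2 fold change was 0.16 ± 0.17 (adjusted p = 0.496, 95% interval −0.21 to 0.53).

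Signalling genes and receptors of the bud list followed. Epha5, an ephrin receptor, was at 0.796, 0.778, 1.95, 1.04 and 1.11 CPM in anterior and 6.54, 14.6, 3.71, 5.91 and 8.68 CPM in posterior libraries (log2 fold change 2.79 ± 0.36 (SE), adjusted p = 0.000153). The Wnt, FGF and retinoic acid members are described with their pathways. Nkx1-2, a homeobox gene of the bud's bipotent neural and mesodermal progenitors, was at 6.43, 10.3, 3.75, 7.16 and 7.75 CPM in anterior and 47.6, 75.8, 36.5, 47.4 and 59.2 CPM in posterior libraries (log2 fold change 2.91 ± 0.071 (SE), adjusted p = 1.21e-09), and embryo 2 was again highest in the posterior piece. Sall4, a zinc-finger factor of early progenitors, was at 56.1 to 104 CPM against 153 to 254 CPM (log2 fold change 1.32 ± 0.052 (SE), adjusted p = 2.85e-08). Sox2 and Sox3, which mark neural progenitors along the whole axis, were the listed bud genes that were lower, at log2 fold changes of −0.70 and −0.69. Among genes of early progenitors and of the trunk-to-tail switch, 13 of 17 tested were higher and 2 lower (median 0.45). The octamer-binding factor Pou5f1 (Oct4), known from pluripotent and germ cells, was at 0, 0.156, 0.156, 0.0577 and 0.0651 CPM in anterior and 1.46, 1.77, 1.32, 1.88 and 1.31 CPM in posterior libraries (log2 fold change 4.08 ± 0.44 (SE)). Every posterior library was above every anterior one, but Pou5f1 was tested only through the posterior libraries, which fixed its direction. Lin28a, an RNA-binding protein that blocks let-7 maturation, was at 295, 396, 268, 318 and 292 CPM and 481, 634, 436, 558 and 510.0 CPM, without overlap (log2 fold change 0.74 ± 0.035 (SE), adjusted p = 1.02e-07). Gdf11, the ligand of the trunk-to-tail transition, had a log2 fold change of 0.90 ± 0.082 and Hmga2, a chromatin protein of undifferentiated cells, 0.66 ± 0.043. Nr6a1, an orphan receptor of the trunk, was among the lower genes (log2 fold change −0.26 ± 0.058 (SE), adjusted p = 0.00526), and this small difference did not pass without the embryo as a block.

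The presomitic mesoderm list, with the 8 genes tested only through posterior libraries, had no member outside the calls: 19 of 21 genes were higher and 2 lower, with a median of 1.05. Msgn1, a bHLH factor of presomitic mesoderm, had 2 anterior counts in all, both in embryo 2, and stood at 10.9, 27.8, 14.3, 22.4 and 14.5 CPM in the posterior libraries. The ratio was 785-fold, with a 95% counting interval of 217 to 6487, and without embryo 2 no anterior count remained. Tbx6, which commits progenitors to paraxial mesoderm, was at 0.171, 0.35, 0.391, 0.346 and 0.521 CPM in the anterior and 30.8, 39.2, 30.3, 29 and 34.9 CPM in the posterior piece (log2 fold change 6.55 ± 0.14 (SE)). Like Msgn1, it was tested only through the posterior libraries, which fixed its direction. The pieces were far apart in every embryo for both genes. Hes7, the oscillating repressor of the segmentation clock, was at 0.114, 0.467, 0.313, 0.231 and 0.261 CPM and 19.1, 13.4, 17.4, 10.7 and 19.4 CPM (log2 fold change 5.72 ± 0.22 (SE)). Hes7 too was tested only through the posterior libraries. Mesp2, which sets the next somite boundary, was at 0 to 0.231 CPM against 2.1 to 6.09 CPM, and Dll1, the Notch ligand of the presomitic mesoderm, at 59.4 to 68.8 CPM against 117 to 161 CPM, and Dll1 was thus also measured in the older axis. The genes of the list that were lower were Lfng, the glycosyltransferase that tunes Notch, and Heyl, a Notch target, at −0.42 ± 0.084 and −0.94 ± 0.072. Lfng did not pass without the embryo as a block.

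Msgn1 and T stand for these 2 sets, and the 250 bases before their start sites are shown with the capitals marking matches to the motifs searched (RefSeq, GRCm38.p6). The windows are chr12:11208949-11209198, minus strand, for Msgn1 and chr17:8434173-8434422, plus strand, for T. In the Msgn1 window the capitals are a match to the TCF/LEF motif CTTTGAT read on the opposite strand, one to the RBPJ motif TGGGAA on the opposite strand and one to the caudal motif TTTATG on the opposite strand. In the T window they are the E-box CAGCTG and the caudal motif.
Msgn1: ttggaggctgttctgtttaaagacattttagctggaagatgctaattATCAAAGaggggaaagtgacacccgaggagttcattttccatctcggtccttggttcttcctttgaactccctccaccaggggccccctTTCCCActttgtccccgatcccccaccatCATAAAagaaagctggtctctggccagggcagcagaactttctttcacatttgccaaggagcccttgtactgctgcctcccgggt
T: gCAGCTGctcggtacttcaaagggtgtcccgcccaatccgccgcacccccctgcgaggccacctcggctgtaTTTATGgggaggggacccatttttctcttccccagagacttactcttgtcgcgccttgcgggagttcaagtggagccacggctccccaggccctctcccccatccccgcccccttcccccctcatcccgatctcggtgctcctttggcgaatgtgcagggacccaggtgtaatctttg
A match is a description of letters, not a site. Over windows of 300 bases (250 before and 50 after the start, both strands), the TCF/LEF letters were found in 3.73% of all 32851 windows, 2.56% of the windows of genes tested, 3.49% of those of genes higher beyond 2-fold and 4.72% of those of genes lower beyond 2-fold. For the caudal motif the shares were 11.9%, 6.36%, 8.91% and 9.44%. For the RBPJ motif they were 25.6%, 23.0%, 28.3% and 20.3%, and for the T-box motif AGGTGTGA, searched as well, 1.28%, 0.827%, 1.55% and 0.556%. The T-box letters were found in 4 windows of higher and 2 of lower genes. The shares were not tested against each other. In windows of the called genes of the presomitic list, 20 in all, the TCF/LEF, caudal and RBPJ letters were found in 10%, 15% and 25%, and in the 16 windows of the called bud genes in 12.5%, 12.5% and 6.25%. A gene can have more than 1 window.

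FGF signalling genes mostly stood on the posterior side. Of 15 ligands and receptors, 8 were higher and 2 lower (median 0.50). Fgf8, the main FGF of the bud, was at 2.45, 3.23, 3.67, 2.13 and 2.15 CPM in the anterior and 18.4, 28, 14.1, 20.5 and 24.9 CPM in the posterior libraries (log2 fold change 2.96 ± 0.18 (SE), adjusted p = 5.38e-07). Fgf17, of the same subfamily, had 11 anterior counts in all and 37.5, 60.9, 29.8, 37.6 and 30.7 CPM in the posterior libraries, which is 321-fold, with a 95% counting interval of 179.5 to 644. Embryo 2 was the highest posterior library for both ligands. The log2 fold change of Fgf17 was 8.32 with all embryos, 7.70 without embryo 2 and 8.99 without embryo 5. Fgf18 and Fgf9 followed at log2 fold changes of 3.33 ± 0.14 and 3.03 ± 0.18, whereas the receptor Fgfr3, at 72.2 to 97.8 CPM against 17.5 to 32.4 CPM, was lower (log2 fold change −1.73 ± 0.084 (SE), adjusted p = 1.15e-07). Fgf5 was the other lower member, at −2.50 ± 0.44. Among 12 targets and feedback regulators, 10 were higher and 0 lower (median 1.06; without embryo 5, 1 was lower). The transcription factor Etv5 was at 19.2, 21.2, 32.6, 25.8 and 21.4 CPM and 72.7, 96.1, 81.4, 92.6 and 79.5 CPM (log2 fold change 1.84 ± 0.10 (SE), adjusted p = 2.09e-07). The phosphatases Dusp4 and Dusp6, which switch off ERK, had log2 fold changes of 1.16 ± 0.044 and 0.95 ± 0.055, and the receptor antagonist Il17rd 1.90 ± 0.11.

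Wnt genes were divided. Of 18 ligands tested, 6 were higher and 5 lower (median 0.21). The canonical bud ligand Wnt3a was at 13, 11.9, 10.8, 11 and 10.5 CPM and 20.7, 26.7, 18.9, 18.4 and 15.3 CPM (log2 fold change 0.80 ± 0.092 (SE), adjusted p = 6.58e-05), a smaller difference than that of Wnt5a, a non-canonical ligand of elongating tissue, at 42.6 to 60.1 CPM against 148 to 186 CPM (log2 fold change 1.78 ± 0.084 (SE), adjusted p = 1.02e-07). Wnt1, of the dorsal neural tube, was lower (log2 fold change −1.21 ± 0.14 (SE), adjusted p = 7.72e-05). Of 18 targets and feedback genes, 10 were higher and 3 lower (median 0.22). Lef1, a nuclear effector and target, was at 43, 44.2, 52.3, 37.9 and 35.6 CPM and 124, 150.1, 116, 138 and 119 CPM (log2 fold change 1.61 ± 0.088 (SE), adjusted p = 2.55e-07), and Rnf43, which removes Wnt receptors, had a log2 fold change of 2.27 ± 0.22. The secreted antagonist Dkk1 was at 0.967, 0.972, 4.07, 1.27 and 1.43 CPM and 11.3, 28, 13.5, 31 and 9.34 CPM (log2 fold change 3.49 ± 0.37 (SE), adjusted p = 3.97e-05), so both an effector and an inhibitor of the pathway were higher. Axin2, a target often used as a Wnt readout, did not pass: it was at 73.9 to 90.7 CPM in the anterior and 68.7 to 86.8 CPM in the posterior libraries (95% interval −0.18 to 0.14). The secreted antagonists Sfrp1 and Sfrp5 were lower, at −1.18 ± 0.050 and −3.19 ± 0.35.

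Retinoic acid genes were divided, with its enzymes and receptors on either side. Of 18 genes tested, 3 were higher and 7 lower (median −0.20). Cyp26a1, the enzyme that degrades retinoic acid in the bud, was at 3.24, 2.45, 5.32, 2.02 and 4.23 CPM and 39.3, 51.7, 40.6, 45.4 and 38.7 CPM (log2 fold change 3.71 ± 0.19 (SE), adjusted p = 1.59e-07), while its paralogue Cyp26b1 was at 13.3, 12, 12.6, 18.9 and 11.4 CPM and 4.24, 2.64, 3.45, 2.63 and 2.89 CPM (log2 fold change −2.10 ± 0.16 (SE), adjusted p = 3.4e-06). Neither pair of groups overlapped. The receptor Rarg was higher at 16.4 to 29.5 CPM against 61.4 to 96.3 CPM (log2 fold change 1.88 ± 0.11 (SE), adjusted p = 3.51e-07). Rarb, a receptor that is itself a retinoic acid target, was lower at 32.6, 29.4, 27.8, 27.2 and 27.4 CPM against 10.2, 5.53, 12.6, 9.36 and 11.2 CPM (log2 fold change −1.61 ± 0.15 (SE), adjusted p = 1.18e-05), and the lowest value was again that of embryo 2. The binding proteins Crabp1 and Crabp2 were also lower, at −2.17 ± 0.056 and −1.24 ± 0.052. Aldh1a2, the enzyme that makes retinoic acid in somites, was at 144, 183, 104, 132 and 113 CPM in anterior and 129.5, 90.1, 136, 119 and 108 CPM in posterior libraries, overlapping, with a 95% interval of −0.53 to 0.11 for the log2 fold change.

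Hox genes of higher paralogue group mostly had larger differences. The median log2 fold change was −0.48 in group 2, −0.23 in group 3, −0.48 in group 4, −0.76 in group 5, 2.33 in group 6, 1.82 in group 7, 2.82 in group 8, 4.48 in group 9, 6.55 in group 10 and 9.02 in group 11. The medians did not follow the order throughout: group 1 stood at 1.69, they fell from group 3 to group 5, group 7 lay below group 6, and group 13 stood at 8.84. Group 13 is Hoxd13 at 7.76 ± 0.32 (9.90 without embryo 3) and Hoxa13, and group 12 is Hoxd12 alone, and the fitted values of the last pair depend on the prior count because they had no anterior count. Over the 36 Hox genes tested, Spearman's rho with the group number was 0.83. It is a description across genes that share libraries and clusters. In groups 1 to 4, 4 of 12 genes were higher and 4 lower (median −0.08), in groups 5 to 8 9 of 11 were higher and 2 lower (median 1.58), and in groups 9 to 13 the 13 tested of 16 were higher. Of these 13, 5 were tested only through the posterior libraries, so neither their direction nor the count of 13 is a test of the group. The median of the 13 was 6.55, or 5.26 with the genes at 0 in all anterior libraries set to their lower bound. That median is the value of Hoxa10, which was 8.69 without embryo 3. Hoxb13, Hoxc12 and Hoxc13 did not have enough counts to be tested, at 0 in every anterior library and at most 1.93 CPM (Hoxc13, embryo 3) in a posterior one.

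**Figure D2:**
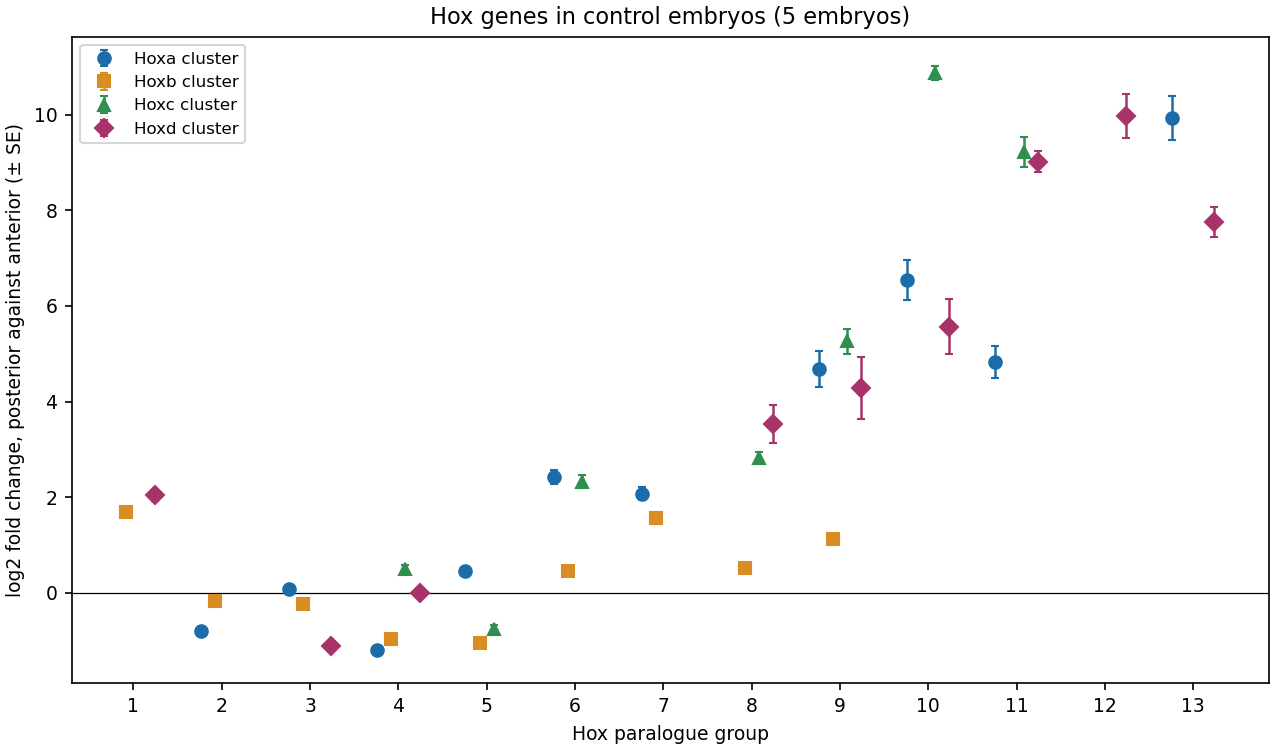
The log2 fold change (posterior against anterior, ± SE, 5 embryos) of the tested Hox genes, 1 of them not shown, is plotted against paralogue group, with a colour and symbol for each cluster. Genes of groups 2 to 5 lie between −1.19 and 0.50, those of groups 10 to 13 between 4.83 and 10.87, and the Hoxb genes of groups 6 to 9 lie below their paralogues.

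Hoxc10 (chr15:102966796-102971893 in GRCm38) was nearly absent from the anterior libraries. It had 6 anterior counts in all against 16796 posterior ones. Its posterior libraries were at 123, 154, 121, 146 and 127 CPM, which is 1986-fold, with a 95% counting interval of 912 to 5413. The log2 fold change was 10.87, and 11.75 without embryo 2, whose anterior library held the largest share of the 6 counts. Hoxd12 and Hoxa13 had no anterior count and were at 6.67, 1.47, 13.2, 6.15 and 5.92 CPM and 5.88, 4.58, 7.72, 6.35 and 4.8 CPM in the posterior libraries. With a floor of 3 counts per library, and the largest floor of the 5 anterior libraries, Hoxd12 was at least 28.5-fold and Hoxa13 at least 25-fold higher, and at least 21.5-fold and 23-fold without the highest posterior library. Hoxb9 was the smallest difference of these groups: it was at 133, 149.5, 148, 121 and 139.7 CPM in the anterior and 331, 299, 259, 299.9 and 315 CPM in the posterior libraries (log2 fold change 1.12 ± 0.068 (SE), adjusted p = 5.32e-07), without overlap. Within group 9 the genes differed widely, from 1.12 for Hoxb9 to 5.26 for Hoxc9.

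Genes of the middle of the clusters were measured throughout the axis and differed by degree. Hoxc8 was at 7.39, 9.84, 14.1, 6.58 and 11 CPM and 63.8, 71.2, 64.9, 65.3 and 71.7 CPM (log2 fold change 2.82 ± 0.12 (SE), adjusted p = 5.38e-08), and Hoxa7 at 13.6 to 27.7 CPM and 63.4 to 88.9 CPM (log2 fold change 2.07 ± 0.14 (SE), adjusted p = 9.89e-07). Hoxb8 had a log2 fold change of 0.53 ± 0.072. Groups 4 and 5 held genes of both directions. In group 5 Hoxa5 was higher (log2 fold change 0.47 ± 0.084 (SE), adjusted p = 0.00149) and Hoxb5 and Hoxc5 were lower (−1.05 ± 0.080 and −0.76 ± 0.093). In group 4 Hoxc4 was higher (log2 fold change 0.50 ± 0.090 (SE), adjusted p = 0.0016) and Hoxa4 and Hoxb4 were lower, at −1.19 ± 0.076 and −0.96 ± 0.061, as was Hoxd3 of group 3 at −1.11 ± 0.086. In group 1, Hoxb1 was at 19.1, 21.9, 16.3, 13.6 and 18.8 CPM in the anterior and 56.9, 73.4, 47.5, 52.4 and 58.3 CPM in the posterior libraries (log2 fold change 1.69 ± 0.063 (SE), adjusted p = 2.08e-08) and Hoxd1 had a log2 fold change of 2.05 ± 0.11. Hoxd4, Hoxa3, Hoxb2 and Hoxb3 did not pass, at 0.01, 0.08, −0.17 and −0.23. Without embryo 2, Hoxb2 and Hoxb3 were lower (−0.22 and −0.34) and Hoxd4 and Hoxa3 turned to −0.10 and −0.01, and without embryo 5 Hoxb2 was lower (−0.21) and Hoxd4 stood at −0.04.

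Transcripts inside and beside the clusters were also measured. Of 14 non-coding and Evx genes, 11 were tested, 7 higher and 1 lower (median 2.22). The lower one was Hoxb3os (−0.24 ± 0.071), and it did not pass without embryo 2, 3 or 4, without the embryo as a block, or with DESeq2. The non-coding Hotairm1 did not pass, at 0.04 ± 0.094. Evx1, a homeobox gene beyond the 5′ end of the Hoxa cluster, was at 21.8, 45.3, 22.3, 36.4 and 31.2 CPM in the posterior libraries and had 8 anterior counts, which is 342-fold, with a 95% counting interval of 173 to 792. Its antisense partner Evx1os was at 23.6, 34.3, 21.6, 28 and 27.4 CPM, with 9 anterior counts. The log2 fold change of Evx1 lay between 7.72 (without embryo 2) and 9.16 (without embryo 1) and that of Evx1os between 7.41 (without embryo 2) and 8.66 (without embryo 3). The counting of strand is not given in the sources used here, so reads of the partners cannot be told apart, and the same holds for Hoxa11os, which overlaps Hoxa11 (log2 fold changes 6.75 and 4.83, and 7.35 and 5.62 without embryo 3). Gm28309, at chr2:74683446-74694194 (GRCm38), shares exon sequence with Hoxd11 and Hoxd10 on the same strand, and is uncertain for that reason. The lincRNA Gm53, at chr11:96251105-96264868, lies between Hoxb13 and Hoxb9. Gm53 was at 0.171, 0.428, 0.234, 0.115 and 0.195 CPM and 32.7, 54.5, 37.8, 37.7 and 43.2 CPM (log2 fold change 7.40 ± 0.13 (SE)). It was tested only through the posterior libraries, which fixed its direction. Hoxaas3, on the strand opposite to Hoxa3, Hoxa4, Hoxa5 and Hoxa6, had a log2 fold change of 3.27 ± 0.12, and its reads cannot be told apart from theirs where exons overlap.

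TALE factors, the homeodomain partners of Hox proteins, were mostly lower in the posterior piece: 7 of 11 were lower and 2 higher (median −0.35). Meis1 was at 122, 113, 136, 128 and 131 CPM in the anterior and 93, 60.0, 100.5, 87.4 and 83.5 CPM in the posterior libraries (log2 fold change −0.58 ± 0.067 (SE), adjusted p = 6.59e-05), and Meis2 at 196, 185, 192, 178 and 204 CPM and 148, 118, 152, 139 and 162 CPM (log2 fold change −0.42 ± 0.049 (SE), adjusted p = 7.39e-05). Neither pair of groups overlapped, and embryo 2 was the lowest posterior library for both. Pbx3 had the largest difference of the list (log2 fold change −0.93 ± 0.053 (SE), adjusted p = 3.46e-07). The higher genes were Tgif1 (0.72 ± 0.052) and Pknox2 (0.24 ± 0.052).

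**Figure D3:**
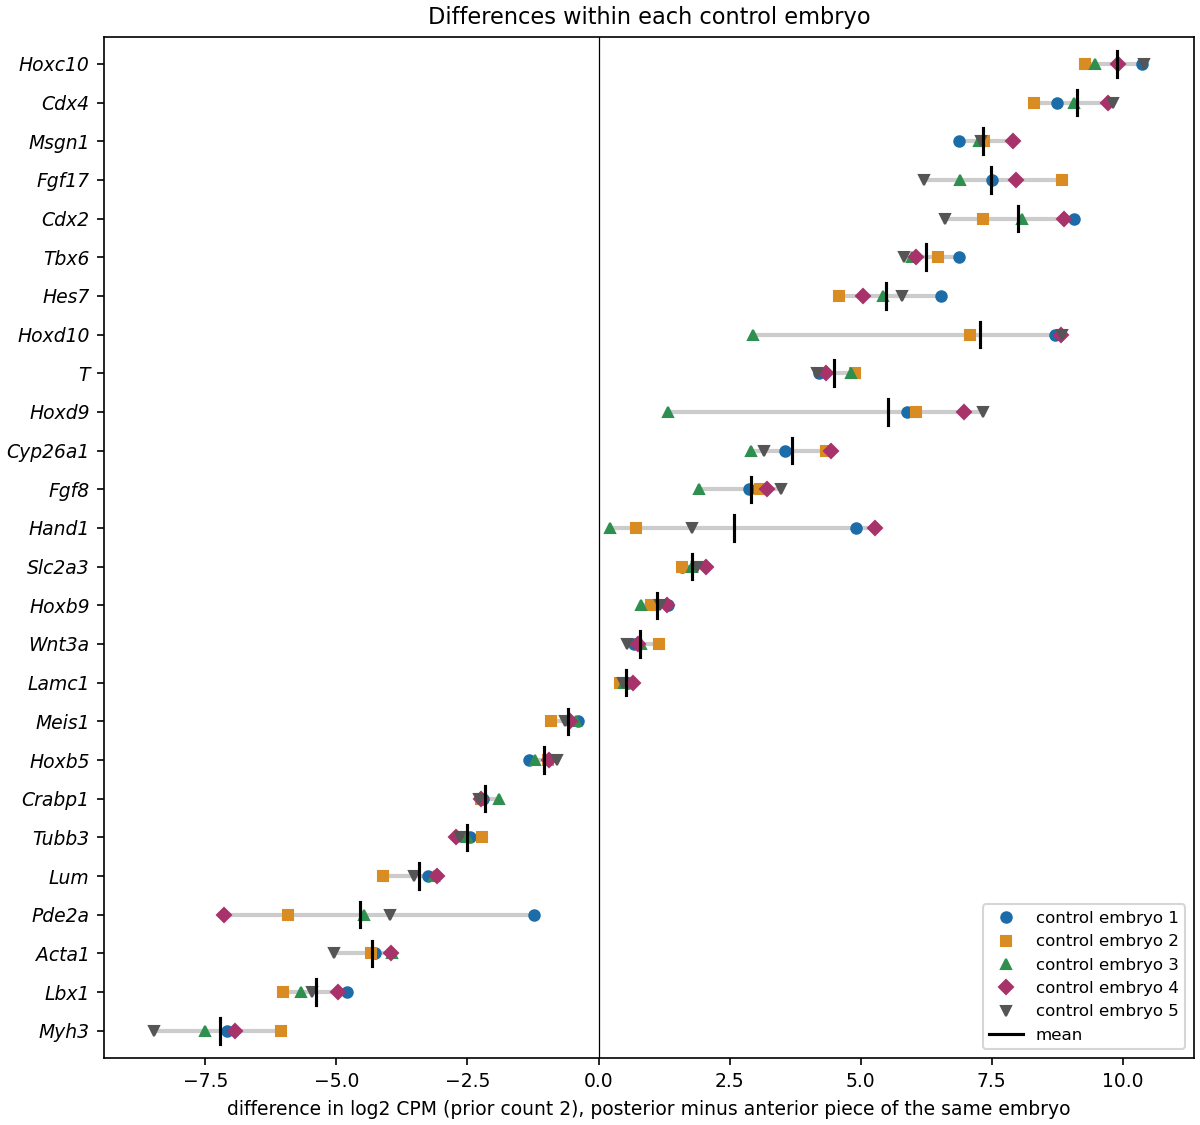
For 26 genes the difference in log2 CPM (prior count 2) between the posterior and the anterior piece is shown for each of the 5 control embryos, with the mean as a black bar. Most genes keep a narrow range, whereas Hoxd9 and Hoxd10 have a far smaller difference in embryo 3, and Hand1 and Pde2a spread widely.

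Both pieces held somites, and genes of somite formation were divided. Of 16 genes, 6 were higher and 6 lower (median 0.04). Foxc2, which is needed for somite formation, was at 30.0, 42.6, 32.3, 39.2 and 31.3 CPM and 71.2, 73.5, 74.2, 70.8 and 102 CPM (log2 fold change 1.15 ± 0.11 (SE), adjusted p = 1.81e-05), and Foxc1 had a log2 fold change of 0.46 ± 0.070. Meox1, of the early somite, was slightly higher (log2 fold change 0.32 ± 0.054 (SE), adjusted p = 0.00111), and its paralogue Meox2 was lower (log2 fold change −0.92 ± 0.12 (SE), adjusted p = 0.000135). Tcf15 and Uncx, which mark epithelial somites and the caudal side of a somite, stood apart in 1 library: the posterior library of embryo 5 had 60.8 CPM and 43.7 CPM, against at most 29.7 CPM and 23.5 CPM in the other posterior libraries. Both genes were higher (0.94 ± 0.16 and 0.95 ± 0.18).

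The sclerotome list, cartilage and vertebral precursors, had 3 higher and 5 lower among 14 tested (median −0.03). Pax1, an early sclerotome factor, was at 54.7, 59.4, 45.3, 53.5 and 59.4 CPM and 34.5, 24.3, 35.6, 31.3 and 42.5 CPM (log2 fold change −0.72 ± 0.11 (SE), adjusted p = 0.0005), and Sox9 had a log2 fold change of −0.42 ± 0.067. Nkx3-2, a later factor of the same lineage, was lower (log2 fold change −1.50 ± 0.28 (SE), adjusted p = 0.00179). The higher ones included Sox6, a factor of cartilage differentiation, at 12.3 to 17.4 CPM against 20.1 to 26.8 CPM (log2 fold change 0.59 ± 0.070 (SE), adjusted p = 7.79e-05), and Fmod, a matrix proteoglycan, at 2.54 to 3.84 CPM against 3.98 to 6.12 CPM (log2 fold change 0.69 ± 0.15 (SE), adjusted p = 0.00459). The dermomyotome list had 5 higher and 7 lower of 18 (median 0.02), and 3 were higher without embryo 4 or without embryo 5. Lbx1, the factor of muscle precursors that migrate into the limb, was at 7.68, 5.99, 7.27, 9.23 and 6.9 CPM in the anterior and 0.185, 0, 0.0508, 0.205 and 0.0658 CPM in the posterior libraries, which is 60.9-fold, with a 95% counting interval of 36.6 to 109 in favour of the anterior piece. Pax7, of muscle and dorsal neural progenitors, was lower (log2 fold change −2.03 ± 0.12 (SE), adjusted p = 4.66e-07). Tcf21, also known from mesothelium and branchial muscle, was higher (log2 fold change 1.90 ± 0.19 (SE), adjusted p = 2.31e-05).

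Muscle differentiation genes were lower in the posterior piece. Of 28 genes, 22 were tested and 20 were lower, 0 higher and 2 not called (median −1.98), against 17.5% of all genes lower. For 3 of those tested, Myh3 among them, no posterior library reached the minimum of the filter on low counts. They entered only through the anterior libraries, which fixed their direction, so the count is a description. Myh3, embryonic myosin heavy chain, was at 52.3, 23.5, 44.8, 36.5 and 33.5 CPM in the anterior and 0.291, 0.259, 0.152, 0.205 and 0 CPM in the posterior libraries (log2 fold change −7.54 ± 0.18 (SE)). Acta1, skeletal α-actin, was at 27.2, 12.4, 23.3, 15.7 and 18.2 CPM and 1.32, 0.518, 1.42, 0.922 and 0.46 CPM (log2 fold change −4.35 ± 0.15 (SE), adjusted p = 1.23e-08). Embryo 2 had the lowest anterior value of both genes. Myog, the bHLH factor that triggers myoblast differentiation, was at 19.5, 12.8, 16.5, 19.9 and 19.6 CPM and 3.18, 0, 2.69, 1.13 and 1.45 CPM, with no count in the posterior library of embryo 2 (log2 fold change −3.49 ± 0.38 (SE), adjusted p = 4.48e-05). Tnnc2 and Ttn, of the sarcomere, had log2 fold changes of −5.58 ± 0.39 (−6.43 without embryo 1) and −4.27 ± 0.32, and Actc1, which heart and early myotome share, of −1.89 ± 0.087. The summed level of the list was 439.7 to 634 CPM in anterior and 312 to 347 CPM in posterior libraries. Much of that sum was Cdkn1c, a cell cycle inhibitor of many tissues, which did not pass at 195 to 272 CPM and 203 to 223 CPM, and without embryo 2 was lower (−0.19).

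Myh3 and Acta1 were chosen as 2 sarcomere genes of this list, and the 250 bases before their start sites are shown (RefSeq, GRCm38.p6; chr11:67078050-67078299, plus strand, and chr8:123894776-123895025, minus strand). The capitals mark, in Myh3, an RBPJ match on the opposite strand and the TATA box letters TATAAA, and in Acta1 the E-box CAGCTG, the RBPJ letters and the TATA box.
Myh3: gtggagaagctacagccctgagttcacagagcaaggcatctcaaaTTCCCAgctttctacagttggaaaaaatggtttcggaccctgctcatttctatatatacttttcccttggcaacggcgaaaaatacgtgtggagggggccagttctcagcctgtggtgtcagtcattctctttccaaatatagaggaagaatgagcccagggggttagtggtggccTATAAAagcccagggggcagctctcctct
Acta1: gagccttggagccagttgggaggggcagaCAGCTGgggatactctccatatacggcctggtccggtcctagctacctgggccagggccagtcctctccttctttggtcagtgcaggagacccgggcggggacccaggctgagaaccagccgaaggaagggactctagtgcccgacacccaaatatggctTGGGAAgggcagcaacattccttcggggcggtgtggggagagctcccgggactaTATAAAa
Of 20 windows of called muscle genes, 8 (40.0%) held the TATA box letters, 8 (40.0%) the RBPJ letters and 6 (30.0%) the E-box. The shares over all windows of genes tested were 7.38%, 23.0% and 15.4%. In windows of genes beyond 2-fold the TATA box was found in 12.8% of those higher and 14.2% of those lower, and the E-box in 22.1% and 20.3%.

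Neural genes were lower in the posterior piece. All 14 neural tube progenitor markers tested were lower (median −1.63), and their summed level was 452 to 572 CPM in anterior against 159 to 257 CPM in posterior libraries. Hes5, a Notch effector of neural progenitors, was at 45.8 to 56.3 CPM and 14.1 to 20.1 CPM (log2 fold change −1.57 ± 0.060 (SE), adjusted p = 2.46e-08). Of 20 markers of differentiating neurons tested, 15 were lower and 3 higher (median −2.14). Tubb3, neuronal β-tubulin, was at 111, 56.6, 112, 102 and 97.7 CPM and 20.3, 12.1, 19.5, 15.4 and 15.6 CPM (log2 fold change −2.52 ± 0.067 (SE), adjusted p = 2.02e-09). The higher ones were Lhx1, Isl1 and Mnx1, which are also known outside neurons, in intermediate mesoderm, lateral mesoderm and notochord respectively. Mnx1 did not pass without embryo 1, 2, 4 or 5. Lhx4, of motor neuron precursors, was at 7.22, 2.53, 10.1, 6.35 and 7.23 CPM and 0.503, 0.0864, 0.0508, 0.307 and 0.132 CPM (log2 fold change −4.74 ± 0.35 (SE)). It was tested only through the anterior libraries, which fixed its direction. Of 12 neural crest markers, 9 were lower and 0 higher (median −1.02). Sox10, the defining factor of migrating crest, was at 39.3, 36.4, 34.6, 32.4 and 32.8 CPM and 16.7, 6.26, 11.9, 12.9 and 9.99 CPM (log2 fold change −1.64 ± 0.15 (SE), adjusted p = 1.43e-05). Ednrb, a receptor of migrating crest, was at 62.6 to 85.2 CPM and 12.3 to 21.9 CPM (log2 fold change −2.04 ± 0.090 (SE), adjusted p = 5.69e-08), while Foxd3, an early crest factor, did not pass at 6.57 to 9.0 CPM and 5.79 to 13.7 CPM (without embryo 2 it was higher, at 0.44).

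Markers of tissues beside the somites also differed between the pieces. Of 12 intermediate mesoderm markers, which mark the forming kidney, 11 were higher and 0 lower (median 1.94, summed level 69.5 to 99.5 against 191 to 218 CPM). Osr1 was at 5.17, 8.67, 5.55, 2.77 and 3.65 CPM and 29.5, 33.2, 19.2, 28.7 and 20.4 CPM (log2 fold change 2.37 ± 0.18 (SE), adjusted p = 2.69e-06). Of 12 limb bud and lateral plate markers, 8 were higher and 2 lower (median 1.0, summed level 399 to 507 against 686 to 836 CPM). Most of that sum was Lin28a, given above with the early progenitor genes, which was also among the 8 higher. The hindlimb factors Tbx4 and Pitx1 were at 14.9, 11.3, 30.5, 24 and 17.3 CPM and 36.8, 41, 48.5, 65.8 and 38.9 CPM in posterior libraries. They had anterior values of at most 0.313 and 1.88 CPM, both in embryo 3, and the log2 fold change of Pitx1 went from 5.92 to 6.76 without embryo 2. The forelimb factor Tbx5 went the other way, at 1.36, 2.72, 12.3, 1.04 and 1.17 CPM and 0.476, 0.173, 0.761, 0.307 and 0.329 CPM (log2 fold change −2.70 ± 0.42 (SE), adjusted p = 0.000591). For these 3 genes no anterior value lay within the posterior range. Among 8 tested markers of mesothelium and septum transversum, 6 were higher and 2 lower (median 1.04, sum 156 to 248 against 266 to 324 CPM).

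Epithelial markers mostly stood on the posterior side. Of 12 gut endoderm markers tested, 7 were higher and 3 lower (1 lower with DESeq2, median 1.18, summed level 245 to 301 against 259 to 348 CPM). Of 16 surface ectoderm markers, 10 were higher and 0 lower (median 1.07, summed level 123 to 231 against 276 to 373 CPM). Epcam, an adhesion protein of epithelia that stands in both lists, was at 10.3, 15.3, 16.3, 10.5 and 14.2 CPM and 39.9, 44.2, 27, 41.5 and 36 CPM (log2 fold change 1.52 ± 0.15 (SE), adjusted p = 2.01e-05), and Grhl3, of the surface ectoderm, had a log2 fold change of 2.38 ± 0.19. Ihh, the Hedgehog ligand of gut endoderm, was higher (log2 fold change 2.65 ± 0.36 (SE), adjusted p = 0.000237, and 3.27 without embryo 2). All 9 markers of the apical and ventral ectodermal ridges were higher (median 1.78, summed level 89.9 to 133 against 300.4 to 391.8 CPM), among them Dlx5 (2.28 ± 0.19) and the FGF and Wnt ligands given above. Fgf8, Fgf17 and Sp8 are shared between the ridge and the bud lists, and the part of each tissue was not tested.

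Further marker lists were those of notochord, allantois, germ cells, heart, head and endothelium. The notochord and floor plate list had 2 higher and 5 lower of 10 (median −0.17, sum 315 to 359 against 260.1 to 293 CPM), with the node gene Noto at most at 0.0782 CPM in anterior and at 3.28 to 5.12 CPM in posterior libraries, and Shh, the notochord signal, at 27 to 32.7 CPM against 22.5 to 29.4 CPM (log2 fold change −0.25 ± 0.074 (SE), adjusted p = 0.0262). Shh did not pass without embryo 1, 3 or 4, and Noto had 2 anterior counts in all, 1 of them in embryo 3, and the ratio was 175-fold, with a 95% counting interval of 48.1 to 1445 (log2 fold change 7.09, and 7.68 without embryo 3). The allantois and umbilical list had 5 higher and 2 lower of 9 (median 1.64, sum 111 to 190.3 against 200.5 to 266 CPM), and the higher ones were Hoxa13, Tbx4, Pitx1, Bmp4 and Hand1, which are known from hindlimb or lateral mesoderm too. Without embryo 2 or embryo 5, 1 was lower. The germ cell list had 5 of 8 tested higher and 0 lower (median 0.51, sum 53.1 to 66.5 against 84.1 to 126 CPM). Its defining genes Dppa3, Nanos3 and Dazl were below the filter, and the called ones included Pou5f1, given above, and Kit (0.97 ± 0.050), both known outside germ cells too. The heart list had 3 lower and 1 higher of 8 tested (median −0.58, sum 26.3 to 55 against 20.3 to 37.4 CPM). The lower ones were Tbx5 and Myh7 and Tnnt2, which early skeletal muscle also uses, and Nkx2-5 was below the filter. The higher one, Hand1, did not pass without embryo 1, 4 or 5. The head list had 3 higher and 2 lower of 5 tested (median 1.62, sum 15.5 to 31.1 against 20.9 to 28.5 CPM), and the forebrain factors Otx2, Six3 and Rax were below the filter. En2 and Otx1, known from midbrain and forebrain, were the higher ones with Emx2. Both En2 and Otx1 were tested only through the posterior libraries, which fixed their direction. The count and median of the head list are therefore descriptions. En2 was at 0.0569, 0, 0.0782, 0.0577 and 0 CPM in anterior and 1.53, 1.43, 1.12, 0.956 and 0.789 CPM in posterior libraries, which is 36.2-fold, with a 95% counting interval of 12.2 to 177 from 3 anterior counts. Otx1 was at 0, 0.0389, 0.234, 0 and 0 CPM and 1.24, 2.2, 0.965, 1.02 and 1.58 CPM (log2 fold change 4.83 ± 0.64 (SE), and 6.45 without embryo 3). Without embryo 1, 3 or 4, 1 of the head genes was lower. Of 15 endothelial markers, 5 were lower and 0 higher (33.3% called, against 33.6% of all genes, median −0.15, sum 425 to 481 against 277 to 456 CPM), with Kdr at −0.77 ± 0.083 but Cdh5, of all endothelial junctions, at 55.6 to 61.7 against 47.3 to 79.1 CPM and not called (higher without embryo 2, at 0.24).

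Blood RNA varied widely between embryos. The erythroid sum was 1225 to 5923 CPM in anterior and 1730.0 to 2796 CPM in posterior libraries. Of 12 genes tested, 2 were lower and 0 higher (16.7% called, against 33.6% of all genes, median −0.54). Hbb-y, an embryonic globin, was at 1418, 355, 842, 1095 and 1736 CPM and 836, 497, 881, 601 and 517 CPM. The anterior library of embryo 2 was the lowest and the groups overlapped. Without embryo 2, 10 erythroid genes were lower, Hbb-y among them (−0.83), and without embryo 1, 4 or 5 none was. No gene of the yolk sac and liver list was called among 6 tested (median 0.33, sum 5.17 to 32.2 against 9.97 to 16.9 CPM), nor among 2 tested of 10 leukocyte markers (median −0.07, sum 4.89 to 7.43 against 3.55 to 15.3 CPM). Without embryo 2, 2 yolk sac genes were higher. The effect of these other tissues on the somite and bud results was not tested.

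**Figure D4:**
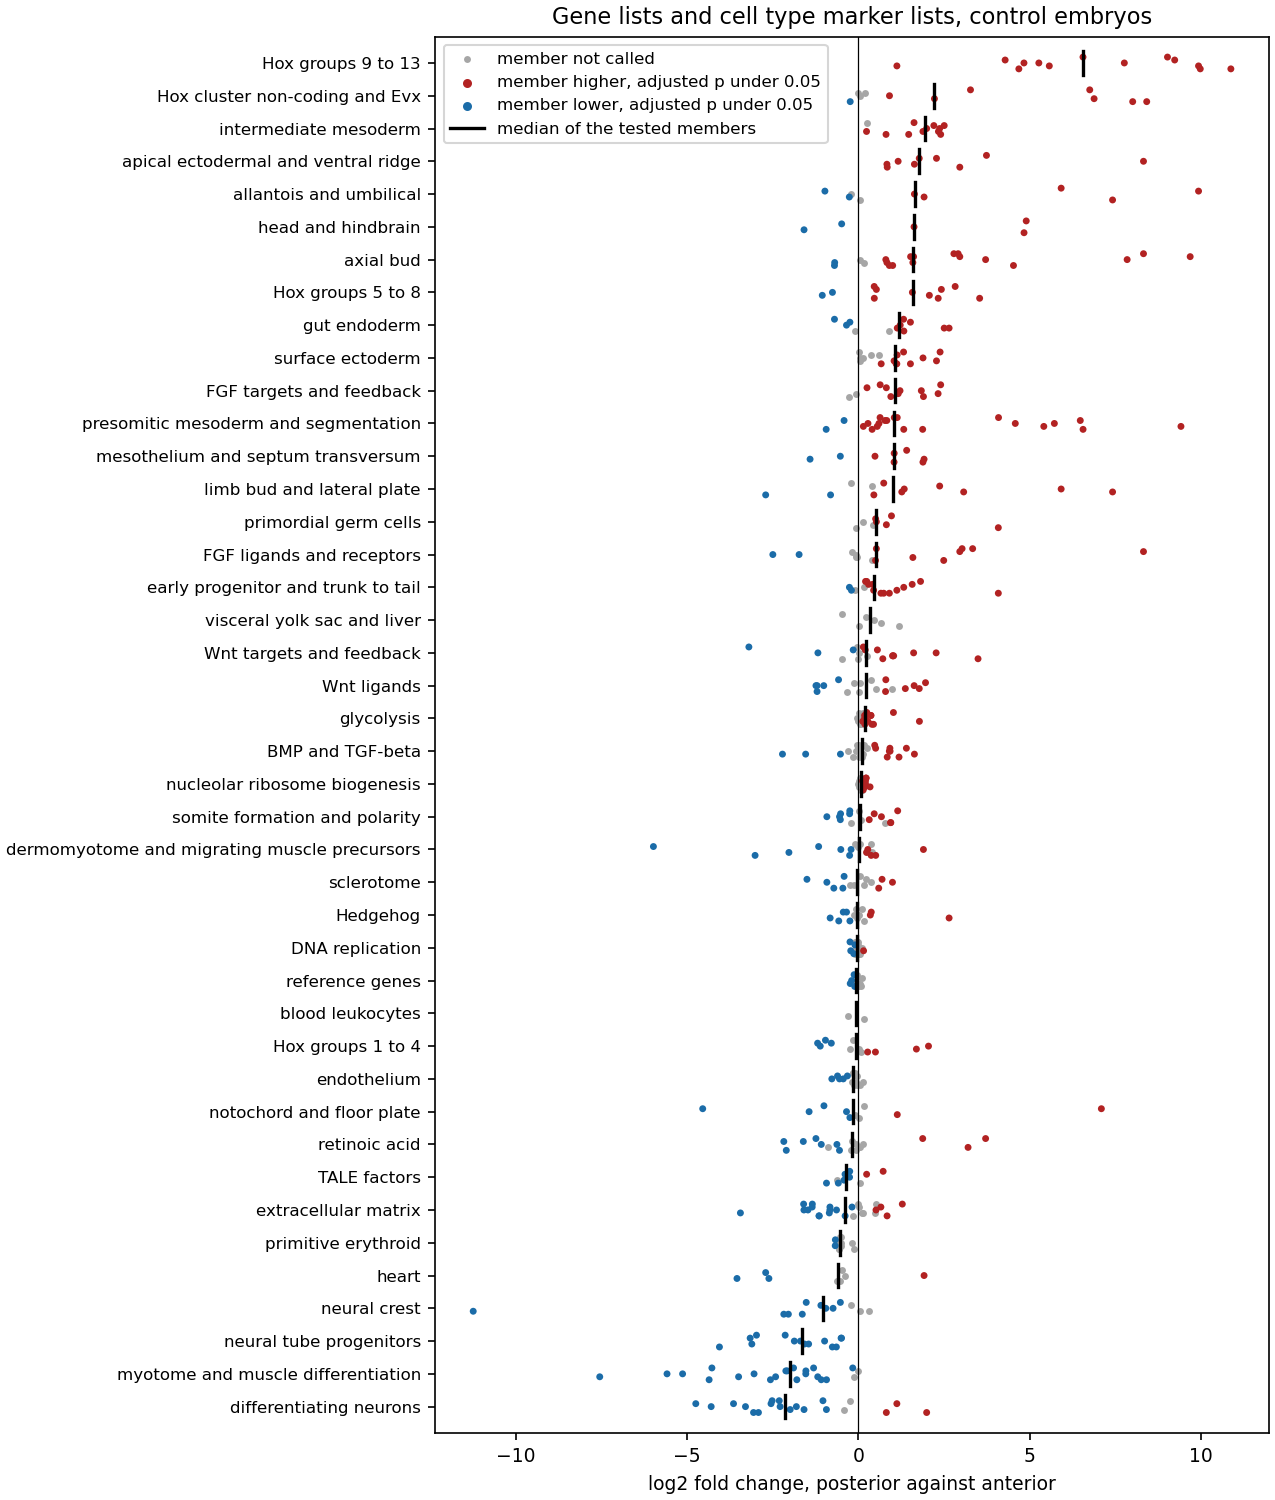
Each point is the log2 fold change (posterior against anterior) of 1 tested member of a gene or marker list, red for higher, blue for lower and grey for not called at an adjusted p of 0.05, with the list's median as a black bar. The lists are ordered by median, from differentiating neurons and muscle at −2.14 and −1.98 to Hox groups 9 to 13 at 6.55.

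BMP and Hedgehog genes showed no common direction. Of 24 BMP and TGF-β genes tested, 9 were higher and 3 lower (median 0.12). Bmp4, a ligand of ventral and lateral tissue, was at 10.9, 10.2, 18.8, 8.94 and 9.96 CPM and 35, 35.7, 33.4, 39.8 and 33.3 CPM (log2 fold change 1.64 ± 0.15 (SE), adjusted p = 1.11e-05), its pseudoreceptor antagonist Bambi had a log2 fold change of 1.40 ± 0.15, and the target Id3 of −0.52 ± 0.056. Of 14 Hedgehog genes tested, 3 were higher and 5 lower (median −0.04; 5 were higher without embryo 2, and 3 lower with DESeq2). The receptor and target Ptch1 was at 163 to 253 CPM and 221 to 281 CPM (log2 fold change 0.35 ± 0.063 (SE), adjusted p = 0.00148), with the co-receptors Cdon and Boc lower at −0.82 ± 0.062 and −0.57 ± 0.049.

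Among metabolic and growth genes, glycolysis stood on the posterior side by small amounts. Of 21 genes, 13 were higher, 0 lower and 8 not called (median 0.19), and the count was 7 without the embryo as a block. Slc2a3, a high-affinity glucose transporter, was at 213, 258, 156, 161 and 177 CPM and 644, 779, 538, 669.6 and 652 CPM (log2 fold change 1.78 ± 0.064 (SE), adjusted p = 1.76e-08), and the lactate exporter Slc16a3 and the first enzyme Hk2 had log2 fold changes of 0.44 ± 0.057 and 0.37 ± 0.047. Several enzymes of this list have processed copies elsewhere in the genome with which reads may be shared. Of 24 DNA replication genes, 1 was higher and 4 lower (median −0.04), with Mcm10 at 0.15 ± 0.035 and E2f1 at −0.24 ± 0.054, and 2 were lower without embryo 1, 2 or 5. Of 23 nucleolar genes, 8 were higher and 0 lower (median 0.09; 5 were higher without embryo 1 or without the block), with Polr1b, a subunit of RNA polymerase I, at 0.34 ± 0.040. Of 12 reference genes, 4 were lower and 0 higher (median −0.06). None of them was lower without embryo 1, and 2 were without embryo 4 or without embryo 5. The share called among the replication, nucleolar and reference lists lay near or below the 33.6% of all genes (20.8%, 34.8% and 33.3%).

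Extracellular matrix genes were mostly lower. Of 25 genes, 14 were lower and 4 higher (median −0.39). The summed level of the list was not lower: it was 2455 to 3206 CPM in anterior and 2993 to 3345 CPM in posterior libraries (medians 2895 and 3064). Fibronectin Fn1, on which somites form, was at 328, 404, 347, 257 and 324 CPM and 791, 851, 769.6, 747 and 842 CPM (log2 fold change 1.28 ± 0.061 (SE), adjusted p = 9.96e-08). The laminin chains Lamb1 and Lamc1 and the fibrillin Fbn2 were also higher (0.84 ± 0.072, 0.52 ± 0.041 and 0.66 ± 0.054). Lamc1 differed between embryos far more than between pieces: it was at 152, 167, 150.2, 75.4 and 79 CPM in anterior and 224, 222, 211, 119 and 109 CPM in posterior libraries, low in both pieces of embryos 4 and 5, and it did not pass without the embryo as a block. The fibrillin Fbn1, the collagens Col6a1 and Col6a2 and the proteoglycan Lum of maturing connective tissue were lower, at −0.83 ± 0.051, −1.59 ± 0.14, −1.35 ± 0.13 and −3.44 ± 0.14.

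The difference was very even over embryos for some genes and not for others. Among called genes with a mean of at least 50 counts, the smallest SD of the difference over 5 embryos was found for Tspan13, Ccni, Pcyox1, Frem1 and Dab2ip. Tspan13, a tetraspanin, was at 100.1, 89, 94.1, 107 and 103 CPM and 61.7, 54.3, 57.6, 65.4 and 63.1 CPM, an SD of 0.01 on the log2 scale (log2 fold change −0.71 ± 0.036 (SE), adjusted p = 1.63e-07). Ccni did not pass without embryo 1, 2, 3 or 4. The largest SDs were those of Hoxd10, Gpr50, Hoxd9, Hand1 and Gm9892. Hand1, of lateral and extraembryonic mesoderm, was at 0.398, 8.75, 8.44, 0.231 and 2.21 CPM and 14.7, 14.4, 9.9, 12.5 and 7.89 CPM (SD 2.36, log2 fold change 1.92 ± 0.57 (SE), adjusted p = 0.025). It did not pass without embryo 1, 4 or 5, Gpr50 did not without embryo 1, 3 or 4, and Gm9892 did not without embryo 3 or 4 (and stood at −2.77 without embryo 1, against −2.10). Pde2a, a phosphodiesterase, had a posterior value of 2.33 CPM in embryo 1 against at most 0.914 CPM in the other embryos (log2 fold change −4.10 ± 0.68 (SE), adjusted p = 0.000886), and its log2 fold change was −5.78 without that embryo and −3.48 without embryo 4. Genes with other large lower values were Lamc3, a laminin chain, at −4.80 ± 0.34 (−5.47 without embryo 1), and Hk3, a hexokinase, at −4.18 ± 0.21.

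One anterior library had values of posterior Hox and limb genes above the other anterior libraries. In the anterior piece of embryo 3, the oldest with 24 somites, Hoxd9 was at 16.2 CPM, against 0.455, 0.622, 0.288 and 0.261 CPM in the others. Hoxd10 was at 0, 0.194, 5.78, 0 and 0 CPM over the 5 anterior libraries and Hoxa10 at 0.228, 0.117, 4.3, 0.231 and 0.13 CPM. The same library was highest for Hand2, at 1.02, 2.53, 9.77, 0.231 and 1.43 CPM (log2 fold change 3.07 ± 0.50, and 3.95 without embryo 3), and for Tbx5 (given above), but not for T, Cdx2 or Msgn1. All 3 Hox genes were nevertheless higher in the posterior piece, at 4.28 ± 0.65, 5.57 ± 0.58 and 6.55 ± 0.42, and without embryo 3 at 6.71, 9.15 and 8.69. Where each embryo was divided beyond the somite counts is not given in the labels, and its part in these values was not tested. In the posterior piece, embryo 2 had the highest T, Cdx2, Fgf8 and Nkx1-2 and the lowest Myog, Rarb and Meis1, and was the youngest of the 5. With 1 embryo of that age, age and embryo cannot be told apart.

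**Figure D5:**
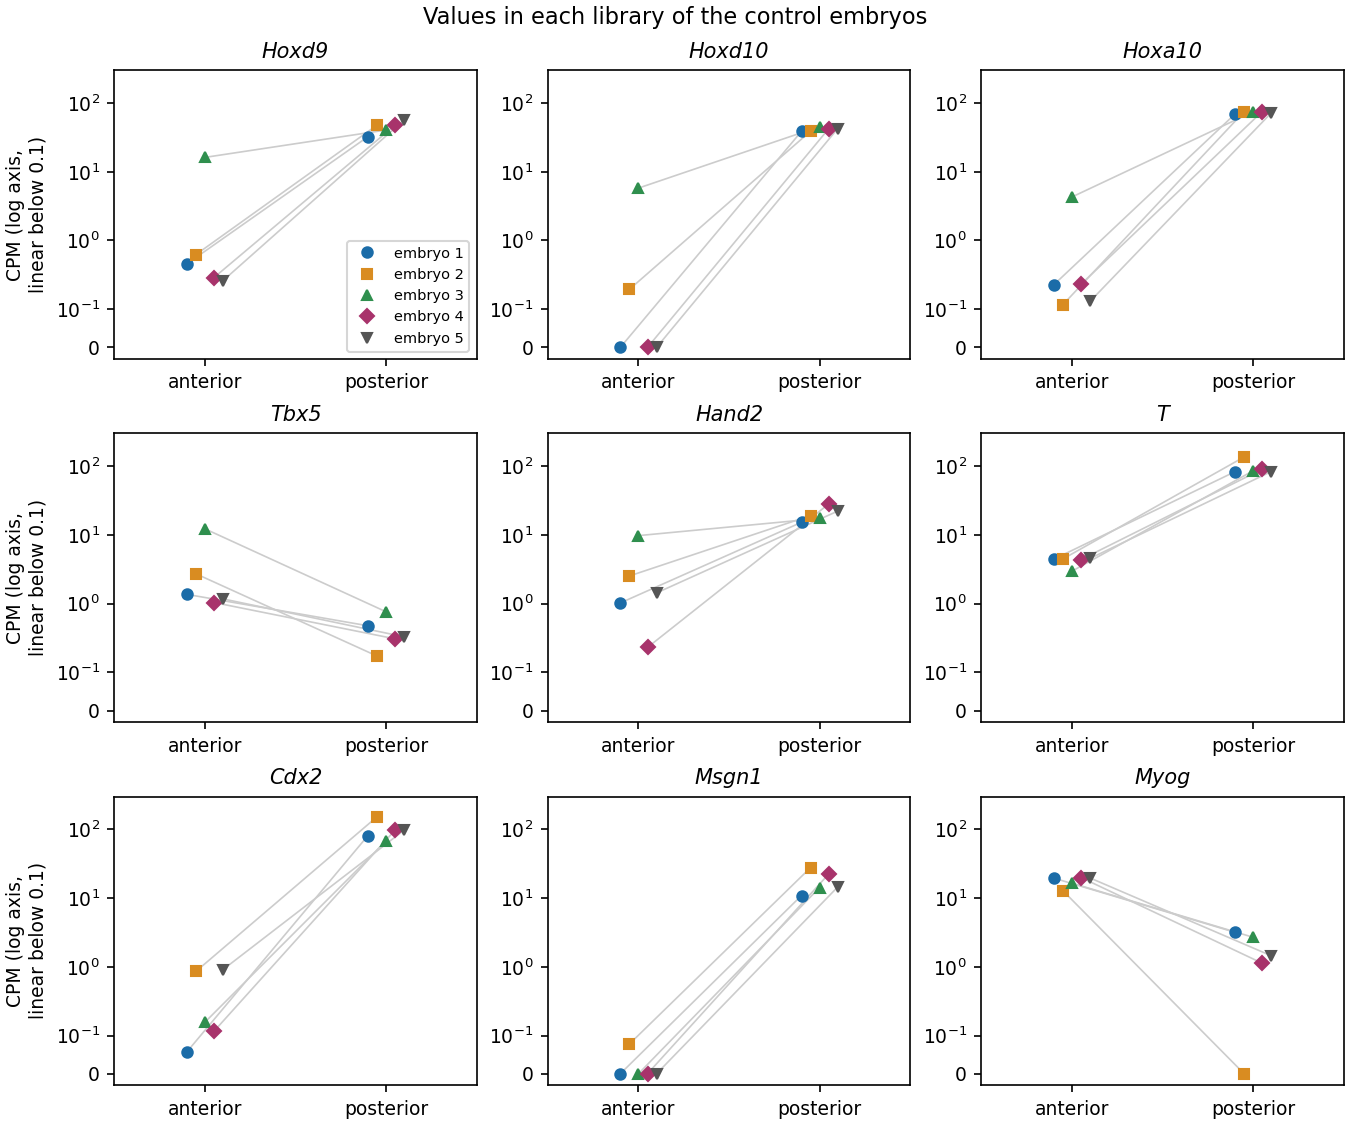
CPM of 9 genes in the anterior and posterior library of each control embryo, on a logarithmic axis that is linear below 0.1, with lines joining the pieces of an embryo. The anterior library of embryo 3 lies above the other anterior libraries for Hoxd9, Hoxd10, Hoxa10, Tbx5 and Hand2, and the posterior library of embryo 2 is highest for T and Cdx2 and at 0 for Myog.

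The same contrast was run in the 4 DKO embryos, where 3004 of 15777 genes were called (19.0%), and 1935 without DKO embryo 1. Of 5091 genes called in controls and tested there, 4803 (94.34%) had the same direction and 2586 were called. All 645 genes beyond 2-fold in controls that were tested in DKO had the same direction, and 628 of them were called. The difference of the 2 contrasts, tested as an interaction with the embryo as a block, called 0 of 16428 genes (edgeR, smallest adjusted p = 0.361), while 860 genes (5.23%) had an unadjusted p under 0.05. DESeq2 called 9, and edgeR without a filter on low counts 295. Without DKO embryo 2, edgeR called 2. For T the log2 fold change was 4.53 ± 0.10 in controls and 4.48 ± 0.08 in DKO (interaction adjusted p = 0.965), for Cyp26a1 3.71 ± 0.19 and 4.61 ± 0.26 (0.851) and for Meis1 −0.58 ± 0.067 and −0.83 ± 0.08 (0.851). Meis1 is itself deleted conditionally in DKO, so its value there is not that of the intact gene. A gene that missed the threshold is not thereby shown to be alike in both genotypes. For Hoxd10 the values were 5.57 ± 0.58 and 9.09 ± 0.40 (interaction adjusted p = 0.851), and the control value was 9.15 without embryo 3. The median of Hox groups 9 to 13 was 6.55 in controls and 9.09 in DKO, but the control median is that of Hoxa10, which embryo 3 moves. That of muscle differentiation was −1.98 and −2.06. The erythroid median was −0.54 in controls, with 2 genes called, and on the other side of 0 in DKO, at 0.49, with 8 called.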

How the data were processed

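RNA of 18 dissected axis pieces was sequenced as single-end 61 bp reads of poly(A) libraries, per the labels' protocols. The authors deposited RSEM expected counts per gene (Ensembl identifiers with symbols). The submitters' processing notes name CASAVA, cutadapt, RSEM and GRCm38; versions, the aligner and the use of strand are not given in the sources used here. Expected counts were rounded, scaled by TMM, filtered with filterByExpr (minimum count 10, total 15) and tested with edgeR 4.0.16 (R 4.3.3, quasi-likelihood, embryo as a block, Benjamini-Hochberg, threshold 0.05), and glmTreat tested against 2-fold. The embryo block follows from the labels, since genotype, sex and somite number match each posterior to 1 anterior library; deviations of same-embryo libraries correlated at 0.2748 to 0.6017 and those of different embryos at −0.3252 to 0.09096. CPM are counts divided by the scaled library size in M (mega), and counting intervals (95%) and the floor of 3 counts cover counting error only. DESeq2 1.42.0 and limma 3.58.1 were alternatives. On simulated data for the control contrast (15069 genes, with 200 changed genes), 67% of genes changed by 0.5 and 77.6% changed by 1 (log2) were recovered. Far more genes, 5136, were called in the real contrast, so these shares do not give the share recovered there.

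The members and gene lists were chosen with earlier results of these data known. Genes were named by rank of adjusted p within each list, by the largest differences, and by the largest and smallest SD over embryos, with all Hox and Cdx genes and Meis1 and Meis2. Chosen after their values were seen were Aldh1a2, Axin2, Cdh5, Cdkn1c, Dazl, Dkk1, Dll1, Dppa3, En2, Epha5, Fgf5, Foxd3, Hand2, Hbb-y, Hotairm1, Hoxb3os, Ihh, Mesp2, Mnx1, Myog, Nanos3, Nkx2-5, Nkx3-2, Noto, Otx1, Otx2, Pou5f1, Rarb, Rax, Six3, Sox10, Sp8, Tbx5, Tcf15 and Uncx. Some genes are not reported here.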

Additional observations from a re-analysis of the deposited data

Results flagged for a closer look

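In 37 of 356 groups of 5 control libraries checked (the CPM of each named gene in either piece, and the total counts), 1 library stood further from the other 4 than Dixon's critical value of 0.71 allows. For normally distributed values chance flags about 1 group in 20. The 37 cannot be set against that rate, since some genes were named for a large SD or after their values were seen. Some flags rest on very few counts, and genes of 1 library are not independent of each other. The anterior library of embryo 3 was the highest for 15 genes, which were Hoxd9 (16.2 CPM), Hoxd10 (5.78), Hoxa11 (4.69), Hoxa10 (4.3), Hoxd13 (0.86), Hoxa5 (33.8), Gm28309 (0.235), Tbx5 (12.3), Hand2 (9.77), Bmp4 (18.8), Bambi (21.7), Il17rd (52.4), Dkk1 (4.07), Epha5 (1.95) and Otx1 (0.235), and it was the lowest for T (2.97 CPM).

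The other libraries stood apart for fewer genes. The posterior library of embryo 5 was the highest for Foxc2 (102.0 CPM), Tcf15 (60.8), Uncx (43.7), Myh7 (2.24) and Six3 (0.263). The posterior library of embryo 2 was the highest for T (136.0 CPM), Fgf17 (60.9) and Kit (50.2). Its anterior library was the highest for Cdx4 (0.311 CPM), Ihh (1.05), Msgn1 (0.0778) and Six3 (0.0389) and the lowest for Pax7 (9.88) and Tubb3 (56.6). Embryo 1 was the highest for Pcyox1 in both pieces (94.6 CPM anterior, 81.8 posterior). The difference thus stayed among the most even of the called genes with a mean of at least 50 counts. The anterior library of embryo 1 was the highest for Fgfr3 (97.8 CPM). Single genes were Cyp26b1, highest in anterior embryo 4 (18.9 CPM), Hoxa6, lowest in posterior embryo 4 (7.14 CPM), Nkx2-5, highest in posterior embryo 3 (0.254 CPM), and Otx2, highest in anterior embryo 5 (0.0651 CPM).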

How the results depend on the processing

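In controls, between 4018 and 4829 of 15219 to 15629 genes tested passed when 1 embryo was left out (1942 to 2390 higher, 2076 to 2439 lower), against 5136 of 15294 with all 5, and beyond 2-fold between 559 and 669 passed, against 668. Without the replicate block (the embryo) 3884 genes passed, 3856 of them shared with the blocked fit. Other scalings, tools and filters gave 4277 (DESeq2) to 5609 (no filter on low counts). The count beyond 2-fold was 421 with a mean of at least 50 counts, where fewer genes were tested. In DKO, leaving out 1 embryo gave 1935 to 3103 genes. For the difference between genotypes, DESeq2 called 9 genes, the fit without a filter 295 and the fit without DKO replicate 2 called 2, where the others gave 0 (range 0 to 2 when 1 embryo was left out); the cause was not tested. Among 170 named genes with a test, 9 passed with the block and not without it. Small values that were not called changed sign: Hoxd4 (0.01) stood at −0.002 with the embryo as a random effect, −0.015 with upper quartile scaling, −0.096 without embryo 2 and −0.042 without embryo 5 (highest 0.082 without embryo 4), Hoxa3 (0.08) at −0.012 without embryo 2 (highest 0.147 without embryo 1), and Axin2 (−0.02) at 0.048 without embryo 1 and 0.036 without embryo 3 (lowest −0.084 without embryo 2). Depth limits genes of few anterior counts, whose ratios rest on the few counts given beside them.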
